A study of Rattus norvegicus with 8 samples.

Results

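Regulators of G-protein signaling (RGS) are the proteins that switch off heterotrimeric G proteins. The 10 genes described here are Rgs2, Rgs4, Rgs7, Rgs8, Rgs9, Rgs10, Rgs14, Rgs16, Rgs17 and Rgs20, which were taken by name from the 17337 genes of the count table. Messenger RNA was sequenced from the striatum of 8 male Sprague-Dawley rats, labelled as wild type, whose age is not given in the sources used here. The 4 METH rats had pressed a lever for intravenous methamphetamine at 0.05 mg/kg per infusion, and the 4 saline rats had pressed for saline alone, both in sessions of 2 h per day over 16 days. Both groups had been trained on food pellets, carried a jugular catheter and were killed under ketamine and xylazine. The animals were chosen for stable lever pressing at the end of training, so each group is a selected set, and the interval between the last session and death is not stated.

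A receptor bound by its ligand loads the alpha subunit of a G protein with GTP, and the signal lasts until that GTP is cut. RGS proteins speed up the cut, so they shorten the response of a cell to dopamine, opioids, glutamate or acetylcholine. They fall into subfamilies by sequence and partners: the R4 subfamily (Rgs2, Rgs4, Rgs8, Rgs16) has little beyond the RGS domain itself, the R7 subfamily (Rgs7, Rgs9) works in a complex with the beta subunit Gnb5, the R12 subfamily holds Rgs10 and Rgs14, and the RZ subfamily (Rgs17, Rgs20) acts on Gz among others. Medium spiny neurons, which make up most of the striatum, carry Gi- and Gq-coupled receptors on which these proteins act.

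All 10 genes had enough counts to be tested, and 1 of them, Rgs2, was called different between the groups, with more transcript in METH rats. The background to this count is that 0.516% of the 12014 genes tested were called, at a false discovery rate (FDR) below 0.05 and a mean log2 CPM (counts per 1000000 reads, scaled for library composition) above 1. Calls of higher expression in METH rats made up 0.449%. At an unadjusted p below 0.05 the count was again 1 of 10, Rgs2, against 11.1% of all genes tested. Rgs2 was also the only 1 of the 10 in which the range of METH rats was clear of the saline range, which was the case for 6.39% of all genes tested. Of the other members, 5 had estimates above and 4 below the saline level. The median log2 fold change of the 10 genes was 0.016, beside -0.0055 for all genes tested.

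**Figure D1:**
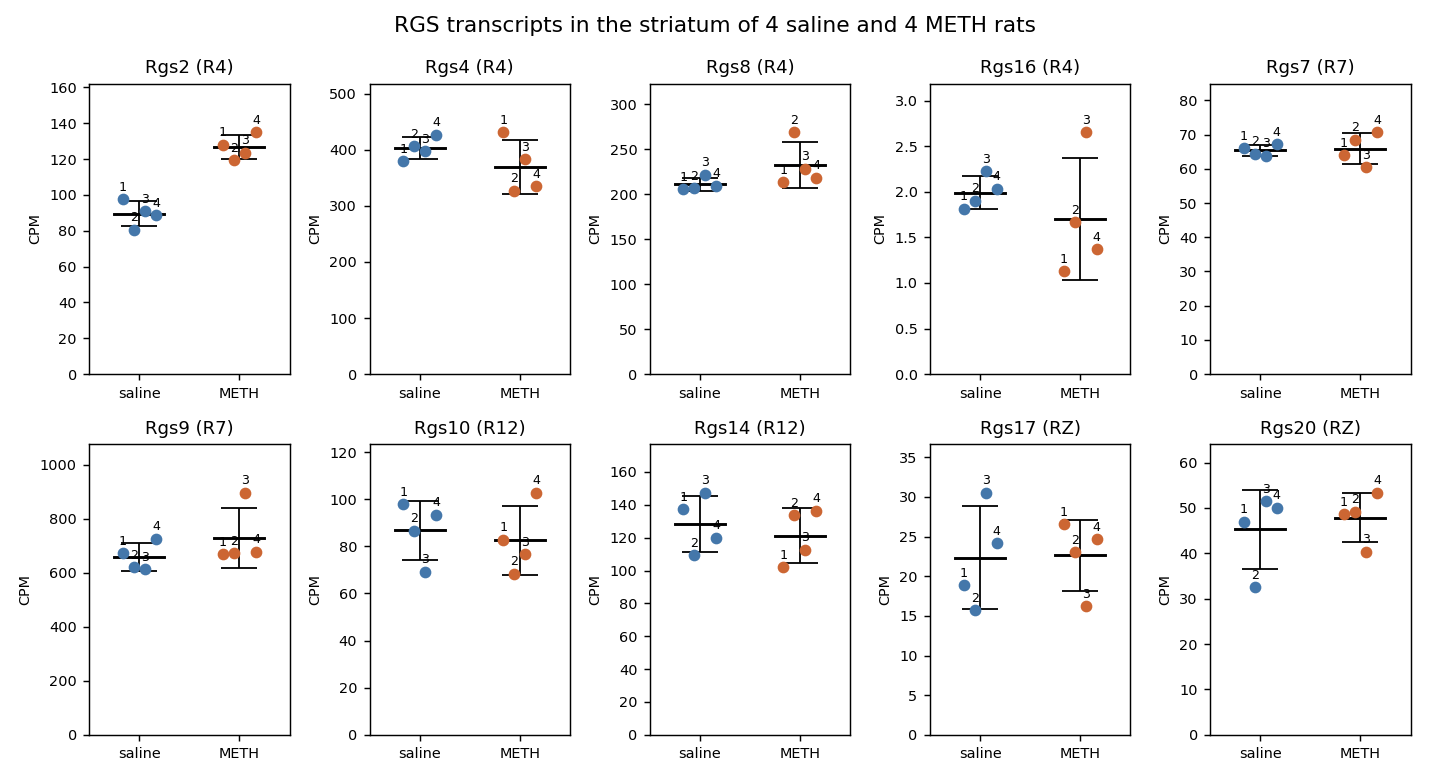
Level of each RGS transcript in CPM (vertical axes, each starting at 0) in 4 saline rats (blue) and 4 METH rats (orange). Points are rats with their replicate number, the thick line is the group mean and the bars are the SD. In Rgs2 the METH rats lie between 119.3 and 135.1 CPM, all above the saline rats, and in the other 9 genes the groups overlap.

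Total counts ran from 18135939 to 21211920 per rat, so 3 counts, taken as the smallest detectable number, corresponded to 0.142 to 0.169 CPM. The tissue label was checked with 13 markers of striatal projection neurons, all of which were tested, and their summed level was at least 15001 CPM in every rat. Saline replicate 1 stood apart in markers of cortical glutamatergic neurons (7 of 8 listed genes present in the table), with a summed level of 88.3 CPM against 8.74 to 11.2 CPM in the other saline rats and 9.28 to 21.1 CPM in METH rats. The 8 astrocyte markers were all tested and 0 were called, with sums of 3498 to 4164 CPM in saline rats and 3508 to 4386 CPM in METH rats. METH replicate 3 stood apart from the other METH rats on the first principal component of all genes tested (39.5 against 0.257 to 5.29). Saline replicate 3 was the farthest the other way, at -24.6 against -11.7 to -4.17 in the other saline rats. This component held 26.4% of the variance, and all METH rats were above 0 and all saline rats below 0 on it. Because whole tissue was sequenced, fewer cells of a type and less RNA per cell cannot be told apart in any value given here.

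The R4 subfamily held the only call. Rgs2 encodes a small protein that acts preferentially on Gq and also restrains adenylyl cyclase, and its mRNA is known to be made quickly after neurons are stimulated. Rgs2 was at 97.6, 80.5, 91.0 and 88.7 CPM in saline replicates 1 to 4, and at 128.1, 119.3, 123.6 and 135.1 CPM in METH replicates 1 to 4. The lowest METH rat was well above the highest saline rat. The coefficient of variation (CV, the SD over the mean) was 5.32% in METH rats and 7.89% in saline rats. The SDs themselves were close, at 6.74 and 7.06 CPM, and the difference in spread was not tested. The underlying read counts were 1779, 1611, 1884 and 1878 in saline rats and 2617, 2507, 2189 and 2563 in METH rats, and these did not overlap either, before any scaling.

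The mean of Rgs2 was 89.5 ± 7.06 CPM under saline and 126.5 ± 6.74 CPM under METH (SD, n = 4 in each group). The fitted log2 fold change was 0.50 (SE, the standard error, 0.079). Its FDR was 0.00895 (edgeR quasi-likelihood test), and it equals a ratio of 1.41 with a 95% interval of 1.26 to 1.59. In an exact permutation test of log2 CPM the two-sided p was 0.0286, the smallest that the 70 ways of labelling 4 of 8 rats can give. Without saline replicate 1 the log2 fold change was 0.54 (FDR = 0.0121, quasi-likelihood test), and without METH replicate 3 it was 0.51 (FDR = 0.0215, same test). With 1 rat left out, the smallest change was 0.45 (without saline replicate 2, FDR = 0.0385, same test). The highest FDR of these fits was 0.0414 (without saline replicate 4, same test). Among the 54 genes called higher in METH rats, the change of Rgs2 was the second smallest, beside a median log2 fold change of 0.95 and a range from 0.44 to 4.16. Its standard error was the smallest of the 54. Summed markers of the choroid plexus, present at low level, did not overlap between the groups in the same direction, at 4.06 to 5.60 CPM in saline rats and 6.09 to 8.91 CPM in METH rats. All 6 genes of that list were in the table and 2 were tested, neither called, with Otx2 at 0 in every rat and Ttr at 0 to 36 counts, and the part of this tissue in the Rgs2 result was not tested.

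The bases before the start of the gene are shown for Rgs2 and for Rgs4 and Rgs8, the 2 other R4 members with many reads, because only the first of the 3 was called. They were read from RefSeq promoters of assembly GRCr8, a different build from the rn6 genome used for counting, and lie on chromosome 13 at chr13:58352667-58352916 (minus strand) for Rgs2, chr13:84475885-84476134 (minus strand) for Rgs4 and chr13:68366648-68366897 (plus strand) for Rgs8. Each run holds the 250 bases before the annotated start, 5′ to 3′ on the strand of the gene. Capitals mark CGTCA (the core of a cAMP response element), CCAAT and TATAAA, on either strand.
Rgs2: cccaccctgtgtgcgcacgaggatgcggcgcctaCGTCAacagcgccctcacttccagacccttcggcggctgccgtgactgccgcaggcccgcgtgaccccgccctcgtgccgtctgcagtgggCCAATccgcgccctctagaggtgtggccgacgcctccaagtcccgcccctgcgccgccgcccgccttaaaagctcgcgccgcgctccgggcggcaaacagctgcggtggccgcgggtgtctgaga
Rgs4: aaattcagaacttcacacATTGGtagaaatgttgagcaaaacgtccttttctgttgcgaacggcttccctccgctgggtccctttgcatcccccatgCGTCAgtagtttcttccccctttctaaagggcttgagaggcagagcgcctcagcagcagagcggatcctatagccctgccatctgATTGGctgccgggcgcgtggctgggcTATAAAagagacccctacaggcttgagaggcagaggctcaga
Rgs8: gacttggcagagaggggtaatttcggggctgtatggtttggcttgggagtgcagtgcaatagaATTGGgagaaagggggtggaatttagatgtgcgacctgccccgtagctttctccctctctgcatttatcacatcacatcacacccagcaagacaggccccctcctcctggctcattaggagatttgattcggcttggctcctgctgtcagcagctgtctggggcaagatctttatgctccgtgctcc

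Rgs2 held CGTCA 216 bases before its start and CCAAT 125 bases before it, in a window that was 72.4% G and C. CGTCA was also found in Rgs4, 153 bases before the start, together with a TATAAA at 42 bases, and Rgs4 was not called. Rgs8 had neither, and its window was 53.6% G and C. Promoters were found for 9 of the 10 members and not for Rgs20. CGTCA (or TGACG) was present in 18.2% of 33469 windows of the same length, and in 2 of the 9. The full cAMP response element TGACGTCA (1.59% of windows), the Egr motif GCGTGGGCG (0.478%) and the Nr4a motif AAAGGTCA (1.24%) were in none of the 9 windows. The AP-1 motif TGANTCA (6.34%) was in Rgs17 alone. CCAAT (34.0%) was in 5 of the 9 and TATAAA (12.9%) in Rgs4 alone. The full element contains CGTCA, so a window with it counts in both shares. A match is a run of letters and was not tested as a binding site.

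Rgs4 encodes an abundant brain RGS protein that acts on Gi and Gq and is known for its part in striatal glutamate signaling. It was at 379.4, 406.8, 397.7 and 427.0 CPM in saline replicates 1 to 4 and at 431.6, 327.1, 383.2 and 335.3 CPM in METH replicates 1 to 4. METH replicates 2 and 4 were below every saline rat, while METH replicate 1 was the highest of the 8. The log2 fold change was -0.12 (SE 0.090, FDR = 0.619, quasi-likelihood test), with a 95% interval of the ratio from 0.801 to 1.05. Without METH replicate 1 it was -0.21, with an unadjusted p of 0.0254 and an FDR of 0.311 by the quasi-likelihood test, so it was not called. It shrank to -0.071 without METH replicate 2 and to -0.081 without METH replicate 4.

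Rgs8, which acts mainly on Gi and is found in striatal and cerebellar neurons, was at 205.4, 206.8, 221.6 and 209.3 CPM in saline rats. In METH rats it was at 213.2, 268.9, 228.1 and 217.9 CPM. Each METH rat was above 3 of the 4 saline rats, and METH replicate 2 was the highest by far. The log2 fold change was 0.14 (SE 0.083, FDR = 0.537, quasi-likelihood test), the 95% interval of the ratio ran from 0.973 to 1.25, and the exact permutation test gave a p of 0.0857. Without METH replicate 2 the log2 fold change was 0.06.

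Rgs16, which acts on Gi and Gq, was at a low level, with 23 to 47 counts per rat. Its levels were 1.81, 1.90, 2.22 and 2.03 CPM in saline rats and 1.13, 1.67, 2.65 and 1.37 CPM in METH rats. METH replicates 1, 2 and 4 were below every saline rat and METH replicate 3 was above them all, so the CV was 39.4% in METH rats and 8.96% in saline rats. Counting error was wide at this level: the 23 counts of METH replicate 1 have an exact Poisson 95% interval of 14.6 to 34.5, and the 47 of METH replicate 3 one of 34.5 to 62.5. The log2 fold change was -0.23 (SE 0.33, FDR = 0.817, quasi-likelihood test), and a ratio anywhere from 0.522 to 1.39 lay within the 95% interval. Its estimate moved to -0.52 without METH replicate 3 and to -0.075 without METH replicate 1. Its mean log2 CPM of 0.96 was also under the minimum for a call.

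Ratios of 2 genes within a library do not depend on how libraries are scaled. There were 0.257, 0.198, 0.229 and 0.208 reads of Rgs2 for each read of Rgs4 in saline replicates 1 to 4, and 0.297, 0.365, 0.323 and 0.403 in METH replicates 1 to 4, with no overlap. Against Rgs8, the ratio was 0.390 to 0.475 in saline rats and 0.444 to 0.620 in METH rats, and METH replicate 2, where Rgs8 was highest, fell below saline replicate 1. Against Rgs7 it was 1.25 to 1.48 in saline rats and 1.74 to 2.04 in METH rats. These ratios are given as values and the difference between the genes was not tested.

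**Figure D2:**
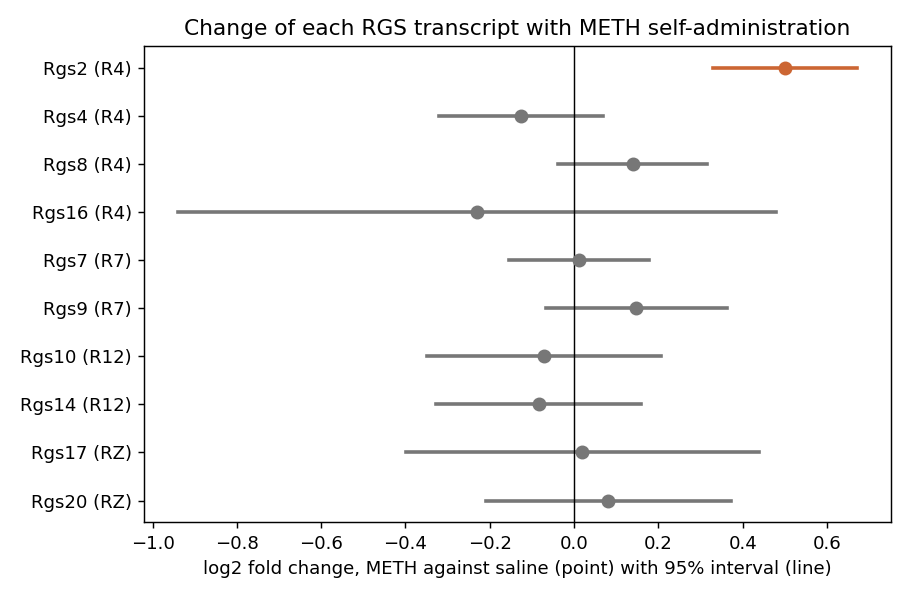
Log2 fold change of each RGS transcript in METH against saline rats (horizontal axis), with points for the estimates of the edgeR fit and lines for the 95% intervals; orange marks the called gene. Rgs2 lies at 0.50 with an interval above 0, the other 9 intervals include 0, and that of Rgs16 is the widest.

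In the R7 subfamily neither gene was called. Rgs9 is known for a long splice form that is concentrated in the striatum and dampens signaling at the dopamine receptor Drd2 and at opioid receptors, and counts per gene do not separate it from the short form of the retina. It was at 671.2, 620.4, 613.4 and 724.6 CPM in saline replicates 1 to 4 and at 669.0, 671.1, 895.4 and 677.7 CPM in METH replicates 1 to 4. METH replicate 3 was alone at the top, and the other METH rats lay close together inside the saline range.

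The log2 fold change of Rgs9 was 0.15 (SE 0.10, FDR = 0.583, quasi-likelihood test), with a 95% interval of the ratio from 0.955 to 1.29, and without METH replicate 3 it was 0.03. The same rat had the highest summed level of the 13 striatal projection neuron markers, 19613 CPM, against 15844 to 17244 CPM in the other METH rats and 15001 to 16004 CPM in saline rats. Of these markers 0 were called and 3 were higher at an unadjusted p below 0.05, beside 11.1% of all genes tested with such a p in either direction. Estimates were above 0 in 6 of the 13 and below 0 in 7, with a median log2 fold change of -0.0099. A large share of the sum came from 1 gene, Ppp1r1b, with means of 7169 CPM under saline and 8499 CPM under METH. The part of these markers in the level of Rgs9 was not tested.

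Rgs7, the other R7 member, was the steadiest of the 10 genes among saline rats, with a CV of 2.41%. It was at 66.0, 64.3, 63.8 and 67.2 CPM in saline rats and at 63.9, 68.4, 60.5 and 70.7 CPM in METH rats, where it took both the lowest and the highest place of the 8. The log2 fold change was 0.012 (SE 0.077, FDR = 0.971, quasi-likelihood test) and the 95% interval of the ratio was 0.899 to 1.13. Of 5 listed partners of the subfamily, 4 were in the table and 3 had enough counts, and none of the 3 was called or passed an unadjusted p of 0.05. Gnb5, the obligate beta subunit, differed by 0.033 on the log2 scale (SE 0.087), the membrane anchor Rgs7bp had -0.018 (SE 0.16), and the orphan receptor Gpr158 had -0.040 (SE 0.13). The other anchor, Rgs9bp, had at most 7 counts in any rat.

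In the R12 subfamily, Rgs10 encodes a small Gi regulator made in neurons and in microglia, and Rgs14 a scaffold that binds Gi and small GTPases and is best known from the hippocampus. Rgs10 was at 97.9, 86.7, 69.2 and 93.4 CPM in saline rats and at 82.8, 68.3, 76.6 and 102.7 CPM in METH rats, and both groups spanned nearly the same range. Its log2 fold change was -0.072 (SE 0.13, FDR = 0.862, quasi-likelihood test), with a ratio from 0.785 to 1.15 in the 95% interval. Of 13 listed microglial markers, 12 were in the table and tested, and 2 were called lower in METH rats, the fractalkine receptor gene Cx3cr1 and the macrophage gene Mpeg1 (log2 fold changes of -0.73 and -0.79). Of the 12, 8 had estimates below 0 and 4 had estimates above 0, with a median of -0.13. The summed level of the list was 468.9 to 541.6 CPM in saline rats and 415.6 to 476.6 CPM in METH rats. METH replicate 2 was the lowest of the 8 rats in both Rgs10 and the microglial sum, and saline replicates 1 and 4 were high in both. Saline replicate 2 had a microglial sum of 538.6 CPM, above that of saline replicate 1, but less Rgs10 than saline replicates 1 and 4. METH replicate 4, the highest in Rgs10, had a microglial sum below that of every saline rat. The part of microglia in the level of Rgs10 was not tested.

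Rgs14 was at 137.2, 109.3, 147.3 and 120.1 CPM in saline rats and at 102.1, 133.6, 112.6 and 136.5 CPM in METH rats. The highest and the lowest rats were in different groups but the ranges overlapped, and the log2 fold change was -0.084 (SE 0.11, FDR = 0.805, quasi-likelihood test). The 95% interval of the ratio was 0.797 to 1.12. With 1 rat left out the log2 fold change ranged from -0.15 (without saline replicate 2) to -0.010 (without METH replicate 1).

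In the RZ subfamily the rats differed more within a group than between groups. Both proteins act on Gz and Gi and are known as partners of the mu opioid receptor. Rgs17 was at 18.9, 15.7, 30.5 and 24.2 CPM in saline replicates 1 to 4 and at 26.6, 23.0, 16.2 and 24.7 CPM in METH replicates 1 to 4, a CV of 29.1% and 20.0%. The log2 fold change was 0.019 (SE 0.19, FDR = 0.981, quasi-likelihood test), with a 95% interval of the ratio from 0.758 to 1.35.

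Rgs20 was at 46.9, 32.5, 51.5 and 50.0 CPM in saline rats and at 48.7, 49.2, 40.3 and 53.3 CPM in METH rats. Its log2 fold change was 0.081 (SE 0.14, FDR = 0.847, quasi-likelihood test), and the 95% interval of the ratio was 0.865 to 1.29. In assembly GRCr8 the span of Rgs20 overlaps that of Atp6v1h, a proton pump gene with more reads (log2 fold change 0.016), and the library kit does not mark strand. Whether their exons overlap in the annotation used for counting, and how reads there were counted, is not known.

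Saline replicate 2 and METH replicate 3 were the 2 lowest of the 8 rats in Rgs20, and they were also the 2 lowest in Rgs17. In Rgs14 they came just above METH replicate 1, the lowest of the 8. Those 3 rats had the highest summed level of 8 oligodendrocyte markers, at 19323 CPM in saline replicate 2, 18754 CPM in METH replicate 3 and 17408 CPM in METH replicate 1, against 12572 to 16937 CPM in the other rats. None of the 8 markers, all tested, was called, and their sum overlapped between the groups (13400 to 19323 CPM in saline rats, 12572 to 18754 CPM in METH rats). METH replicate 1 was not low in the RZ genes, at 26.6 CPM the highest METH rat in Rgs17 and at 48.7 CPM in the middle of the 8 rats in Rgs20. The part of white matter in the levels of these genes was not tested.

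**Figure D3:**
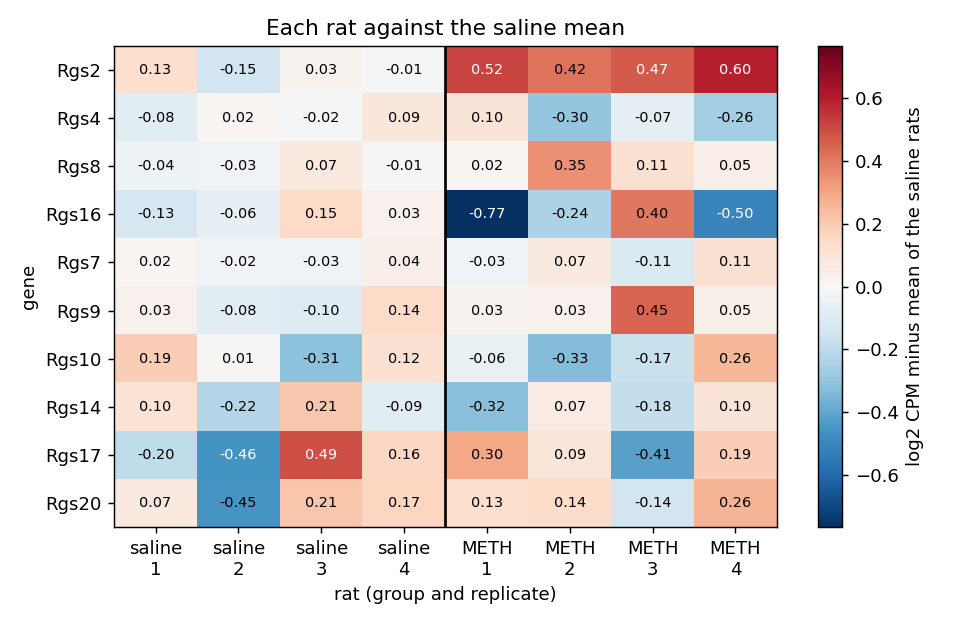
Log2 CPM of each RGS gene (rows) in each rat (columns) minus the mean of the 4 saline rats, in red where higher and blue where lower; the line separates saline from METH rats. Rgs2 is raised by 0.42 to 0.60 in all METH rats, while in Rgs16, Rgs17 and Rgs20 both colours appear within each group.

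Outside these 10, the other RGS genes showed no call. Of 11 listed, 8 were in the table and 5 had enough counts to be tested (Rgs3, Rgs5, Rgs6, Rgs12 and Rgs19), and their log2 fold changes ran from -0.16 to 0.095, none with an unadjusted p below 0.05. Rgs3, which had the lowest p, was at 42.4 ± 2.21 CPM under saline and 45.3 ± 5.75 CPM under METH (SD, n = 4 in each group), a difference of 0.095 on the log2 scale (FDR = 0.742, quasi-likelihood test). Rgs5, which lies next to Rgs4 on chromosome 13 and marks pericytes, had the lowest, -0.16 (SE 0.19), with 27.8 to 61.8 CPM in saline rats and 30.5 to 43.9 CPM in METH rats. All 9 listed endothelial and pericyte markers were tested, all had estimates below 0 and 4 had an unadjusted p below 0.05. Over all genes tested these shares were 51.4% and 11.1%. The summed level of the markers was 515.6 to 730.2 CPM in saline rats and 512.7 to 539.3 CPM in METH rats. The part of vessel cells in the value of Rgs5 was not tested. Chromosome 13 carries 5 of the 10 members (Rgs2, Rgs4, Rgs7, Rgs8 and Rgs16). Rgs8 and Rgs16 are next to each other among protein-coding genes of GRCr8, and they had estimates of opposite sign. The RGS gene nearest to Rgs2 with a row in the table, Rgs1, had 3 to 16 counts per rat, too few to test. Rgs17 lies within 2 protein-coding genes of the mu opioid receptor gene Oprm1 (3 to 56 counts per rat), and Rgs20 within 2 of the kappa opioid receptor gene Oprk1, whose log2 fold change was -0.50 (SE 0.23, FDR = 0.443, quasi-likelihood test).

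The genes on which RGS proteins act, and those through which G proteins act, gave no call in any of 4 lists. All 13 listed alpha subunits were tested, and 11 had estimates below 0, beside 51.4% of all genes tested. Of the 13, 1 had an unadjusted p below 0.05, with an estimate below 0, beside 11.1% of all genes tested. The median log2 fold change was -0.098. The lowest unadjusted p was that of Gnai1, a Gi subunit, with a log2 fold change of -0.30 (SE 0.12, FDR = 0.373, quasi-likelihood test). Gnaq, a Gq subunit that Rgs2 acts on, had -0.31 (SE 0.15, FDR = 0.464, same test). Gna11 of the same list had -0.098 (SE 0.10, FDR = 0.746, same test).

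Of 14 listed beta and gamma subunits, 12 were tested, with a median of 0.026 and 2 higher at an unadjusted p below 0.05. Gnb3, a beta subunit known from photoreceptors, had the lowest p and an FDR of 0.224 (quasi-likelihood test). It had 2, 2, 1 and 19 counts in saline rats and 96, 3, 41 and 43 in METH rats, so the groups overlapped at low counts. All 19 listed receptors were tested, with a median of -0.035, 3 higher and 2 lower at an unadjusted p below 0.05. Over all genes tested, 11.1% had such a p in either direction. The lowest p was that of Htr1b, a Gi-coupled serotonin receptor, with 32.7 ± 10.3 CPM under saline and 48.7 ± 7.08 CPM under METH (SD, n = 4 in each group) (log2 fold change of 0.57, SE 0.18, FDR = 0.245, quasi-likelihood test).

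Of 15 listed effectors, 14 were tested, and 12 had estimates below 0, beside 51.4% of all genes tested. Of the 14, 1 had an unadjusted p below 0.05, beside 11.1% of all genes tested. The median of -0.17 was the lowest of these lists, and the log2 fold changes ran from -0.60 to 0.10. Plcb4, a phospholipase C driven by Gq, had the lowest p, with 25.4 ± 2.89 CPM under saline and 20.5 ± 2.50 CPM under METH (SD, n = 4 in each group) (log2 fold change -0.31, SE 0.12, FDR = 0.373, quasi-likelihood test). Adcy5, the main adenylyl cyclase of the striatum, had a log2 fold change of -0.018 (SE 0.082).

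**Figure D4:**
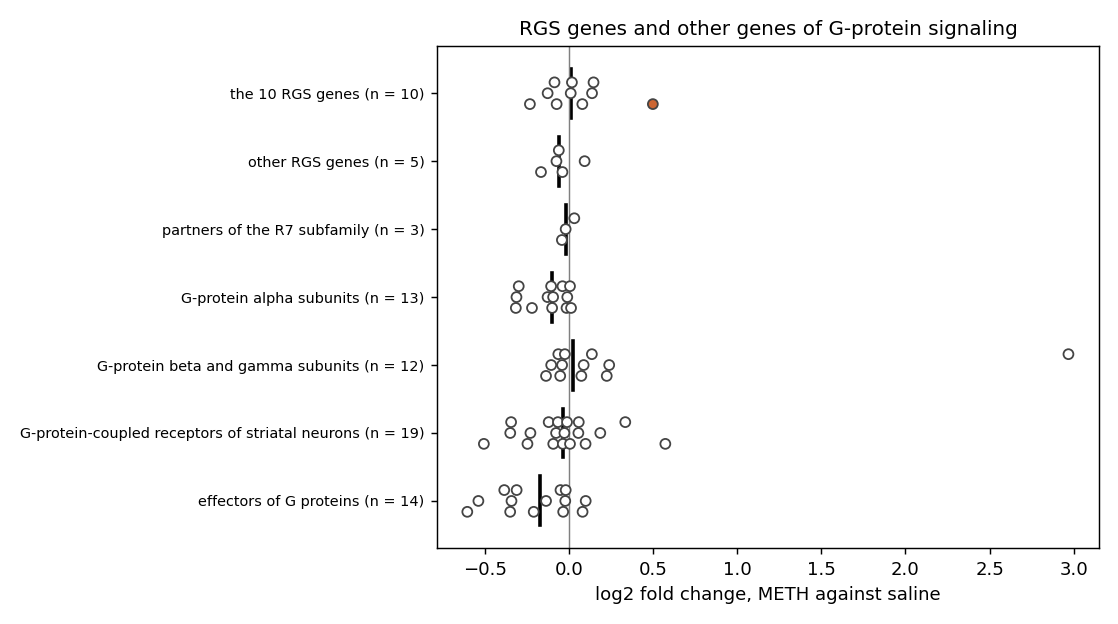
Log2 fold change in METH against saline rats (horizontal axis) of the 10 RGS genes and of 6 lists of other genes of G-protein signaling, 1 point per tested gene with black lines at the list medians; filled points are called. The only filled point is Rgs2 at 0.50, and the open point at 2.97 is Gnb3, whose counts were low.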

How the data were processed

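Poly(A)-selected RNA of 8 striata was sequenced as read pairs. The authors used cutadapt 1.18, STAR 2.7.0e with rn6, and featureCounts of Subread 1.6.4 (versions from the submitters' processing notes), and they deposited raw counts of reads per gene, 1 column per rat. Which annotation was used, whether strand was set and how reads with several matches were treated is not given in the sources used here. Columns were assigned to rats by the group and number in their names. Each rat is 1 replicate.

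The fits were made in R 4.3.3 with edgeR 4.0.16; DESeq2 1.42.0 and limma 3.58.1 served as alternatives. Genes passed filterByExpr (minimum count 10) and were scaled by TMM. The groups were compared with glmQLFTest and Benjamini-Hochberg adjustment over all tested genes. A call needed an FDR below 0.05 and a mean log2 CPM above 1. For log2 CPM the prior count was 2. Each standard error (SE) is the size of the log2 fold change over the square root of F, and the 95% interval uses its t quantile. The fit was tested on simulated data. No pair of rats within a group agreed within counting noise (the chi-square statistic was 10.4 to 28.6 times its degrees of freedom). Intervals from counts cover counting error only.

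All 10 members are named. In each list of other genes of G-protein signaling, the gene with the lowest unadjusted p is named, or the called genes. In the lists of cell type markers only called genes are named by rule, so uncalled markers with a low p are not shown. Gnaq, Gna11, Adcy5, Oprm1, Oprk1, Atp6v1h, Rgs1, Rgs5, Rgs9bp, the R7 partners, Ppp1r1b, Otx2 and Ttr were named for their roles or levels after their values were seen. The members and lists were chosen with earlier results of these data known. The motifs and the ratios between genes were chosen after the values were seen. Alternatives were other tests, scalings, filters, dispersion and thresholds, each rat left out, and the rat number as a block. Levels are not compared between genes, since no transcript lengths of rn6 were used. No coordinates of rn6 are given for the same reason.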

Additional observations from a re-analysis of the deposited data

Results flagged for a closer look

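In METH rats, Rgs9 had 1 rat far from the rest. On the log2 CPM scale the gap between METH replicate 3 and its nearest neighbour was 0.956 of the whole range of the 4 rats, above the 95% critical value of Dixon's test for groups of 4. Of the 20 groups tested, 10 genes in saline and in METH rats, this was the only 1 past the limit, and chance gives about 1 in 20.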

How the results depend on the processing

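Rgs2 kept a log2 fold change between 0.45 and 0.54 under every alternative, and it was called under 18 of the 19 other fits, with an FDR from 1.68e-06 (DESeq2 Wald test) to 0.0414 (without saline replicate 4). The exception was the replicate block, where the log2 fold change was 0.50 and the FDR 0.0528, so that 0 of the 10 members were called. The labels number rats 1 to 4 in both groups, but same-numbered rats are different animals. Over all genes tested, their deviations from the group means had correlations of 0.010, -0.19, -0.20 and 0.036. These were set against no reference, so a processing batch shared by rats of the same number was not tested. The block left 37 genes called, 35 higher and 2 lower, in place of 62, 54 and 8.

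Calls over all genes rose to 170 (131 higher, 39 lower) with the likelihood ratio test, to 168 (130 and 38) with the exact test, to 186 (138 and 48) with DESeq2 and to 100 (82 and 18) at an FDR below 0.1. Without a filter on low counts (1 count was enough), 13 were lower. The cause was not tested. None of these fits called another member. With 1 rat left out, calls ranged from 37 (without saline replicate 2) to 70, higher calls from 35 to 66, lower calls from 2 to 9, and members at an unadjusted p below 0.05 from 1 to 2, the second being Rgs4 without METH replicate 1.

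Signs of uncalled members near 0 turned. Total-count scaling, which moved the median of all genes to -0.041, gave -0.0223 for Rgs7 and -0.0135 for Rgs17. With a rat left out, Rgs7 ranged from -0.0232 to 0.0513, Rgs10 from -0.19 to 0.010, Rgs17 from -0.12 to 0.21 and Rgs20 from -0.0478 to 0.15. The depth limits Rgs16, with at most 47 counts per rat.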
